A study of Mus musculus with 25 samples.

Results

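The fibroblast growth factor (FGF) ligands and FGF receptors were followed across the developing palate of the mouse. The members were the 5 ligand genes Fgf2, Fgf7, Fgf9, Fgf10 and Fgf18 and the 5 receptor genes Fgfr1, Fgfr2, Fgfr3, Fgfr4 and Fgfrl1, chosen by gene symbol, which makes 10 of the 37406 genes in the deposited table. All 10 were found, each in 1 row. RNA came from laser capture microdissected palate of CD1 mouse embryos at E14.5, all wild type and untreated as far as the labels state, soon after the palatal shelves meet. The 8 compartments were the medial, lateral, oral and nasal palate at the anterior level and the same 4 at the posterior level, with 3 libraries each and 4 for anterior nasal, 25 in all. Medial and lateral are one way of dividing the shelf and oral and nasal another, so the compartments overlap in tissue. The labels do not tie libraries to embryos, and p-values therefore measure the spread between these libraries, which may in part be technical.

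FGF ligands are secreted proteins that bind receptor tyrosine kinases on nearby cells, with heparan sulphate as a partner, and signal through the RAS-MAPK cascade. Fgf10 and Fgf7 are typical mesenchymal ligands that act on epithelium, mostly through the IIIb form of Fgfr2, while Fgf18 and Fgf9 act mainly on the IIIc forms of Fgfr3, Fgfr2 and Fgfr1 and are known from bone, cartilage and mesenchyme. Loss of Fgf10, Fgf18 or the IIIb form of Fgfr2 gives cleft palate in mice. The IIIb and IIIc forms of Fgfr1, Fgfr2 and Fgfr3 come from mutually exclusive exons that encode the last part of the third immunoglobulin-like domain, where the ligand binds.

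The deposited values are RPKM (reads divided by transcript length in kilobases and by the mapped reads of that library), 1 value per gene, so reads of the IIIb and IIIc forms are added together in every receptor level given here. To show what such a value adds together, the exon pair of Fgfr3 is printed, a receptor on which the oral and nasal comparison turns. Coordinates and sequences are from the GENCODE M21 transcripts of GRCm38, another build than the mm9 of the deposited table. The Fgfr3 exons lie on the plus strand of chromosome 5, the IIIb exon at chr5:33731281-33731431 with 151 bases in 3 annotated transcripts and the IIIc exon at chr5:33732117-33732261 with 145 bases in 5. Each is written 5′ to 3′, with the longest run of bases that both exons share in capitals.
Fgfr3 IIIb exon: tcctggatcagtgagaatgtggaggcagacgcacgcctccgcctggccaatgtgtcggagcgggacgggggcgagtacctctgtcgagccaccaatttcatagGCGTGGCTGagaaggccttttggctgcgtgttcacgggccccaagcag
Fgfr3 IIIc exon: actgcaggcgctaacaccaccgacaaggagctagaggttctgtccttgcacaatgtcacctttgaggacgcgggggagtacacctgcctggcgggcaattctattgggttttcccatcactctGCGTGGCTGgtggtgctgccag
The shared run was 9 bases, and over a global alignment the exons were the same in 52.4% of columns. The split of each receptor level into these forms was not analysed here. Esrp1, an epithelial splicing factor known to favour the IIIb forms, had a median of 0.944 RPKM over the 25 libraries, with a highest value of 12.4 RPKM.

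The libraries were of uneven quality. The totals implied by the steps between low values were 1.64 to 6.56 M reads (median 3.27 M), which is approximate and lower than the number of sequenced reads that the methods of the study give, and 12935 to 20605 genes were above 0. If these totals hold, counting error alone gives 12.4% to 24.7% at 5 RPKM for a transcript of 2000 bases. Posterior medial 2 and anterior oral 1 correlated least with the others, with a median r across genes of 0.66 and 0.72, and anterior nasal 1 followed at 0.78. Posterior lateral 1 stood apart in several FGF genes and held the highest summed level of 9 skeletal muscle markers, 172 RPKM. All 8 mesenchyme markers were above 0 in every library, and their sum lay between 679 and 1359 RPKM. Markers of epithelium were present everywhere, with sums of 38.3 to 267 RPKM over 16 genes, the highest in posterior medial 2. The sequencing run, known from the alignment names, was shared between oral and nasal libraries in 5 run-by-level groups but in none between lateral and medial libraries.

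The receptor levels were led by Fgfr1 in 24 of 25 libraries. Fgfr1, the main receptor of mesenchyme, lay between 46.8 and 92.1 RPKM, and its compartment means lay between 56.4 and 74.8 RPKM. Ranges of Fgfr1 overlapped in 25 of the 28 pairs of compartments, so its order over the compartments was not resolved. Fgfr2 followed with compartment means of 20.6 to 63.6 RPKM, and Fgfr2 was above Fgfr3 in 25 of 25 libraries. Fgfr3 means lay between 1.49 and 12.6 RPKM. Fgfr4 was low, with a highest library value of 3.19 RPKM and no library at 5 RPKM. Fgfrl1, a receptor that lacks the tyrosine kinase domain, had compartment means of 8.67 to 20.8 RPKM and a single low library, anterior oral 1, at 0.689 RPKM. As a share of the summed RPKM of the 5 receptors, Fgfr1 made up 34.3% to 68.9% and Fgfr2 14.2% to 43.7% over the libraries. In the posterior nasal palate Fgfr2 reached 36.9% to 43.7% of the sum and Fgfr1 lay at 34.3% to 40.3%, a composition that no other compartment showed in its median.

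**Figure D1:**
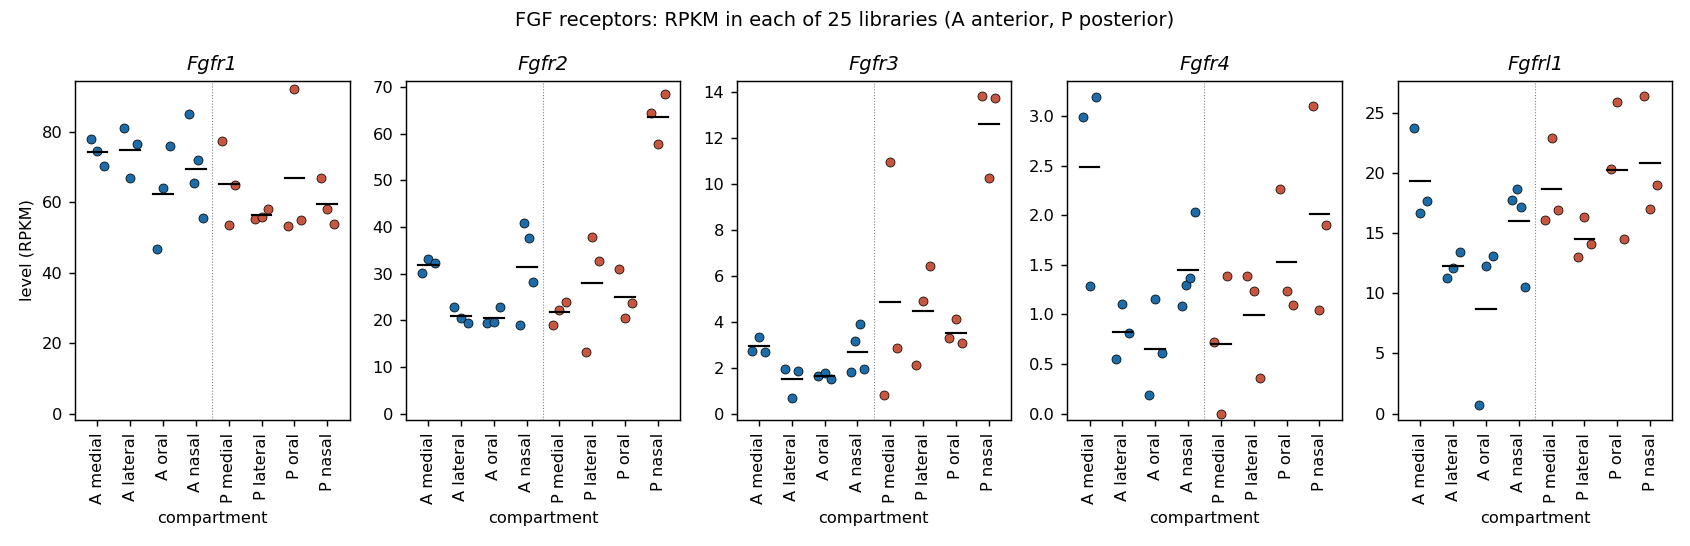
RPKM of Fgfr1, Fgfr2, Fgfr3, Fgfr4 and Fgfrl1 (y axis, linear, a scale for each gene) in the 8 compartments (x axis), with 1 point per library and a bar at the compartment mean. The posterior nasal libraries hold the highest Fgfr2 values, 57.8 to 68.5 RPKM, while Fgfr1 is high in every compartment.

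Among the ligands Fgf18 had the highest level in 19 of 25 libraries. Its compartment means ran from 3.49 RPKM in the posterior nasal to 37.3 RPKM in the posterior lateral palate, and the latter rests on 1 library, posterior lateral 1, at 93.6 RPKM beside 7.62 and 10.5 RPKM in its replicates. Fgf2, a ligand without a signal peptide, had compartment means of 4.92 to 11.7 RPKM that overlapped in 25 of 28 pairs. Fgf9 was low, with 2 libraries at 5 RPKM or more, and these were posterior lateral 1 at 8.90 and posterior medial 2 at 7.36 RPKM. Fgf10 and Fgf7 reached 5 RPKM in 12 and 13 libraries. The order of Fgf10 ran from anterior oral at 9.59 RPKM through posterior oral, posterior lateral, anterior lateral, anterior nasal, posterior nasal and anterior medial to posterior medial at 0.847 RPKM. Neighbours in that order overlapped throughout, whereas 16 of the 28 pairs of compartments did not overlap. In its mean Fgf7 was highest in the posterior nasal palate, 7.02 to 10.7 RPKM, and lowest in the anterior medial palate, 1.26 to 2.65 RPKM. Its ranges overlapped in 20 of the 28 pairs, and between all neighbours in its order.

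**Figure D2:**
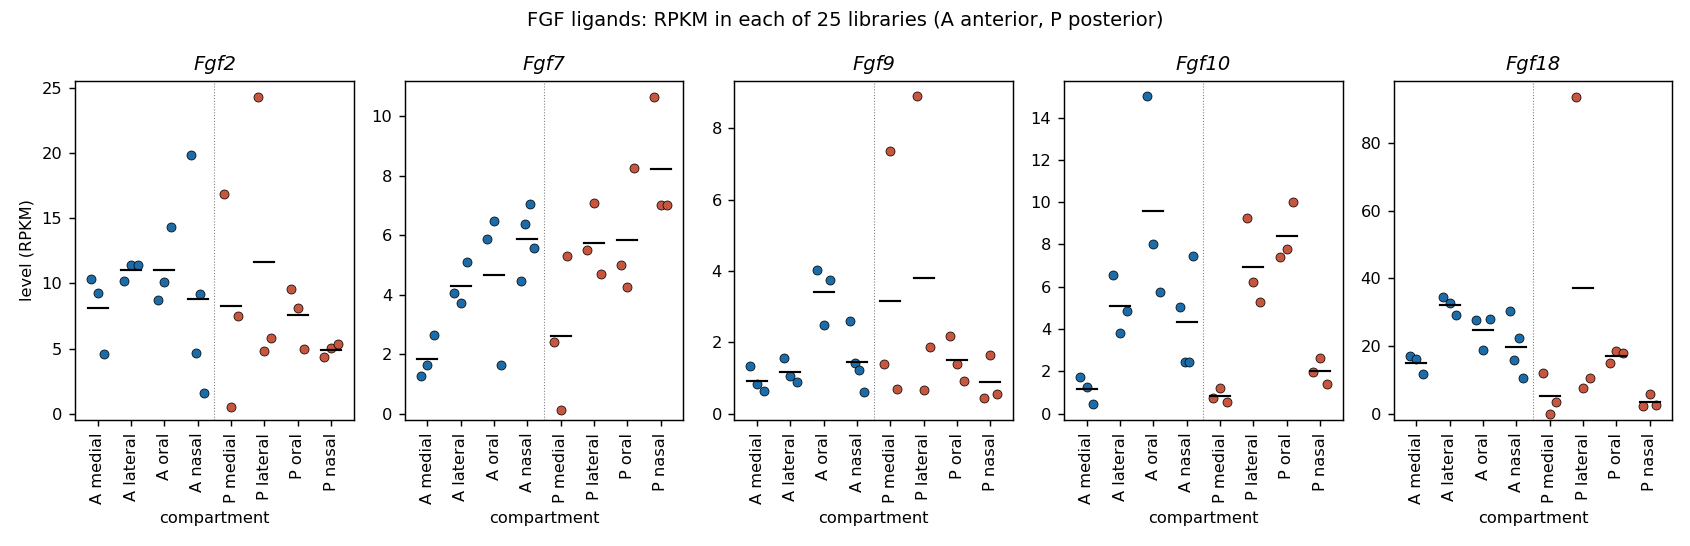
RPKM of Fgf2, Fgf7, Fgf9, Fgf10 and Fgf18 (y axis, linear, a scale for each gene) in the 8 compartments (x axis), with 1 point per library and a bar at the compartment mean. Fgf10 is at 0.472 to 1.74 RPKM in all 6 medial libraries, and the mean of Fgf18 in the posterior lateral palate is set by 1 library at 93.6 RPKM.

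Differences between compartments were tested with limma on log2(RPKM + 0.1), with p-values adjusted after Benjamini and Hochberg across every gene in the fit. A fold change on this scale understates the change of low genes. A gene was called at an adjusted p under 0.05. In these bulk samples, fewer cells of a type and less RNA per cell cannot be told apart.

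The posterior oral and nasal palate differed in 4 of the 10 members. The ligands Fgf10 and Fgf18 were higher on the oral side, and the receptors Fgfr2 and Fgfr3 were higher on the nasal side. Of all genes tested 1.25% were called, and under the P and fold thresholds that the study used, an unadjusted P under 0.05 with a fold change over 2, 3.49% were called and again 4 of 10 members, all 4 above the expression minimum. Before the fit 8 members passed the expression minimum of 5 RPKM in 3 of the compared libraries, and the others were added to it. Oral and nasal ranges did not overlap in 11.8% of all genes tested.

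Fgf10 was at 7.40, 7.77 and 10.03 RPKM in the posterior oral libraries and at 1.98, 2.66 and 1.40 RPKM in the posterior nasal libraries. All oral values were above all nasal ones, and the difference was 2.04 on the log2 scale (SE 0.27, adjusted p = 0.0155, n = 3 and 3). Fgf18 was at 15.0, 18.6 and 17.9 RPKM on the oral side and at 2.14, 5.77 and 2.57 RPKM on the nasal side. These groups did not overlap either, with a difference of 2.39 (SE 0.36, adjusted p = 0.0222). The other 3 ligands did not pass the test.

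Fgfr2 was at 30.9, 20.4 and 23.7 RPKM in the posterior oral libraries and at 64.4, 57.8 and 68.5 RPKM in the posterior nasal libraries. The nasal values were all above the oral ones, a log2 difference of -1.36 oral minus nasal (SE 0.23, adjusted p = 0.0346). Fgfr3, best known as a receptor of the growth plate, was at 3.31, 4.12 and 3.06 RPKM on the oral side and at 13.8, 10.2 and 13.7 RPKM on the nasal side. Again no values overlapped, and the log2 difference was -1.82 (SE 0.23, adjusted p = 0.0142). Fgfr1, Fgfr4 and Fgfrl1 did not pass the test.

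These calls were fragile with 3 libraries a side. The calls of Fgf10 and Fgfr3 were lost without posterior oral 3, posterior nasal 1 or posterior nasal 3, with adjusted p of 0.0633 to 0.0941 for Fgf10 and 0.0555 to 0.0941 for Fgfr3. The call of Fgf18 was lost without any library but posterior nasal 2 (adjusted p of 0.0624 to 0.132) and that of Fgfr2 without any but posterior oral 1 (0.0874 to 0.208). The log2 differences themselves stayed at 1.81 to 2.26 for Fgf10, 2.12 to 2.81 for Fgf18, -1.52 to -1.23 for Fgfr2 and -1.96 to -1.73 for Fgfr3.

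Markers of bone moved with these receptors between posterior oral and nasal. The summed level of 10 osteoblast markers was 443 to 643 RPKM in the posterior nasal libraries and 91.6 to 111 RPKM in the posterior oral ones. This sum was taken over 11 rows, since Spp1 had more than 1. On the nasal side 9 of 10 markers were higher in their mean and 6 without overlap. None of the 10 was at 0 in both groups, and Bglap, a late osteoblast gene, was at or near 0 with a compartment mean of 0.274 RPKM in posterior nasal. The 8 cartilage markers summed to 98.5 to 134 RPKM on the oral and 124 to 190 RPKM on the nasal side, which overlap. In their mean 6 cartilage markers were lower on the oral side, 3 of them without overlap, and 2 were higher. The sum of 8 endothelial markers was higher on the oral side, 154 to 212 RPKM beside 65.6 to 102 RPKM, in the mean of 8 of 8 genes, with 6 not overlapping. The 16 epithelial markers summed to 38.4 to 59.4 RPKM on the oral and 52.0 to 101 RPKM on the nasal side. The 7 nerve and Schwann markers summed to 40.5 to 49.3 RPKM and 23.0 to 32.5 RPKM in the same order. The part of these cell types in the FGF differences was not tested.

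**Figure D3:**
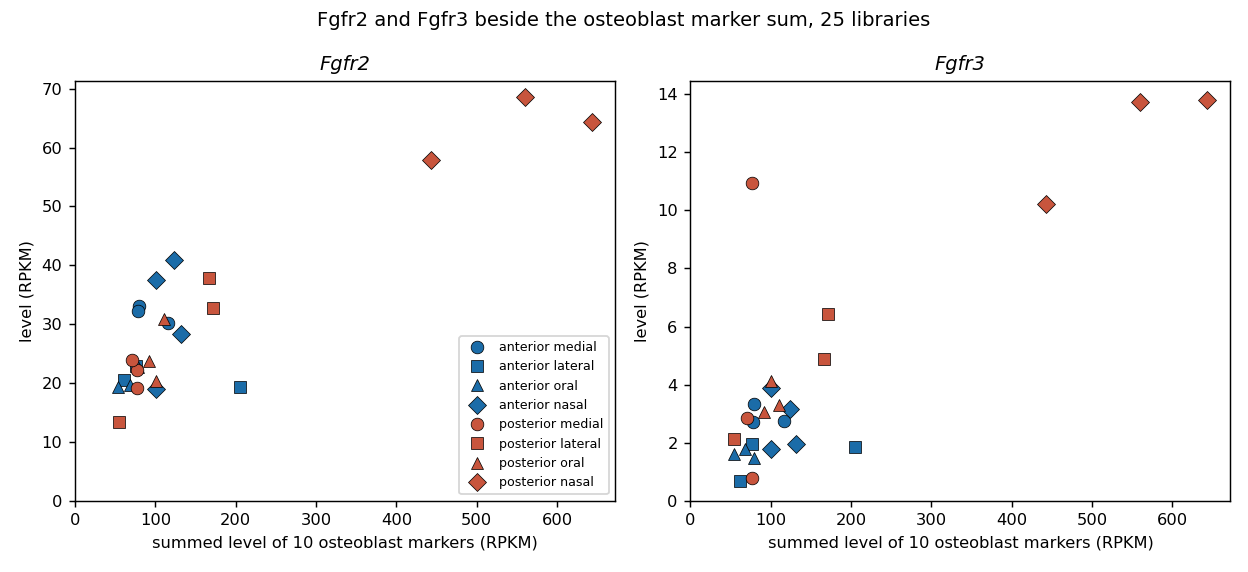
Fgfr2 (left) and Fgfr3 (right) in RPKM on the y axis against the summed RPKM of 10 osteoblast markers (11 rows, as Spp1 has more than 1) on the x axis, with 1 point per library, colour for level and shape for compartment. The 3 posterior nasal libraries lie apart at sums of 443 to 643 RPKM with the highest Fgfr2, while posterior medial 2 has Fgfr3 at 10.9 RPKM without a high sum.

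In the anterior palate no member was called between oral and nasal. The limma test called 0% of all genes there, with 320 of 10687 genes at an unadjusted P under 0.05, and 1.46% of genes passed the P and fold thresholds of the study. By these 3 of 10 members passed, of which 1, Fgf10, was above the expression minimum. Fgf10 was at 15.0, 8.03 and 5.75 RPKM in the anterior oral libraries and at 5.06, 2.46, 2.42 and 7.45 RPKM in the anterior nasal ones. The groups overlapped through 1 nasal library, with a log2 difference of 1.17 (SE 0.49, adjusted p = 1.00). With the replicate number as a block it was 1.48 (adjusted p = 0.684), and the unpaired anterior nasal 4 then adds nothing to the difference. The oral library was the higher in 3 of 3 same-numbered pairs, but these numbers do not follow the sequencing run throughout. Anterior oral 2 shared its run with anterior nasal 3, and their deviations from the compartment mean correlated at 0.40, beside 0.22 with anterior nasal 2. Anterior oral 3 shared its run with anterior nasal 4, where Fgf10 was lower on the oral side. Whether the same-numbered libraries are pairs is thus not known. Fgf9 had a log2 difference of 1.30 and Fgfr4 one of -1.24, both with an adjusted p of 1.00 and both under 5 RPKM in every library of the comparison. Without anterior oral 1 the Fgfr4 difference was -0.67. Fgf18 was at 27.6, 18.9 and 27.9 RPKM on the oral and at 30.3, 15.9, 22.4 and 10.4 RPKM on the nasal side, which overlap widely. Fgfr3 was at 1.62, 1.77 and 1.49 RPKM on the oral and at 1.80, 3.15, 3.90 and 1.94 RPKM on the nasal side. These ranges did not overlap but lay close together, and 3.68% of all genes tested did not overlap here. The osteoblast marker sum was 53.9 to 78.8 RPKM in anterior oral and 100 to 132 RPKM in anterior nasal libraries. The 8 cartilage markers summed to 53.0 to 73.6 RPKM and 89.0 to 145 RPKM.

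With both levels in the same fit, 4 members were called between oral and nasal, beside 1.21% of all genes. These were Fgf10 with a log2 difference of 1.60 (SE 0.31, adjusted p = 0.0343), Fgf18 with 1.40 (SE 0.28, adjusted p = 0.0386), Fgfr2 with -0.96 (SE 0.19, adjusted p = 0.0383) and Fgfr3 with -1.22 (SE 0.20, adjusted p = 0.0126). The call of Fgfr3 was lost without 1 library, posterior nasal 3 (adjusted p = 0.0526). The call of Fgf10 was lost without any of 9 libraries (adjusted p of 0.0585 to 0.115) and held without anterior oral 1 or 3 or anterior nasal 1 or 4. That of Fgf18 held only without anterior nasal 1, anterior nasal 4 or posterior nasal 2, and was lost otherwise (0.0584 to 0.129). That of Fgfr2 held only without anterior nasal 1 or posterior oral 1 (0.0519 to 0.128 otherwise). Without anterior oral 1, a library that stood apart, the log2 difference was 1.36 for Fgf18 and -0.94 for Fgfr2.

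Whether the oral and nasal difference itself differed between the levels was tested as an interaction, posterior difference minus anterior difference. No member was called, beside 0.0350% of all genes, 4 of 11444, with 387 at an unadjusted P under 0.05. Fgf18 had the largest value among the members with an unadjusted P under 0.05, 1.98 on the log2 scale (SE 0.57, adjusted p = 0.534), and Fgfr3 had -1.19 (SE 0.39, adjusted p = 0.850). The posterior differences of Fgf18 and Fgfr3 are thus not shown to be larger than the anterior ones.

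The sequencing run was shared by oral and nasal libraries 3 times at the anterior and 2 times at the posterior level, so the difference could be taken inside a run. Fgfr2 was lower on the oral side in 5 of 5 such comparisons, by log2 differences of -1.39 to -0.31. Fgfr3 was lower in 5 of 5 as well, by -2.03 to -0.36. Fgf10 was higher on the oral side in 4 of 5, between -0.37 and 2.06, and Fgf18 in 4 of 5, between -0.25 and 2.76. Each value compares 1 or 2 libraries a side and carries no test. In the fit of the posterior libraries with run as a term, Fgf10 kept a log2 difference of 1.76 (adjusted p = 0.107), Fgf18 2.12 (0.124), Fgfr2 -1.25 (0.210) and Fgfr3 -1.73 (0.132), none of them called.

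**Figure D4:**
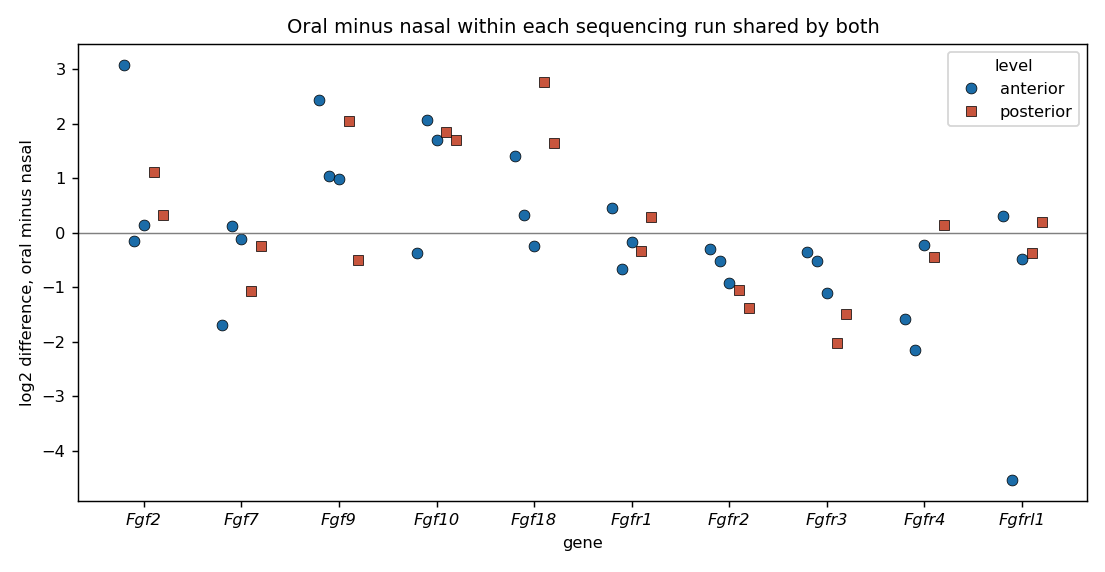
Log2 difference oral minus nasal (y axis, on log2(RPKM + 0.1)) of the 10 genes (x axis) inside each sequencing run that holds both, circles for 3 anterior and squares for 2 posterior runs. All 5 values of Fgfr2 and of Fgfr3 lie below 0, and 4 of 5 values of Fgf10 and of Fgf18 lie above it.

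Lateral against medial at the anterior level gave 3 called members. Fgf10 and Fgf18 were higher in the lateral palate, toward the side where the shelf joins the maxilla, and Fgfr2 was higher in the medial palate. Of all genes 2.52% were called, and 2.41% passed the P and fold thresholds of the study together with 5 of the 10 members. Of these 5, only Fgf18 was above the expression minimum, while Fgf7, Fgf10, Fgfr3 and Fgfr4 were added to the fit below it. In all 5 members passed the minimum in this comparison. Lateral and medial ranges did not overlap in 21.3% of all genes tested.

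Fgf10 was at 6.53, 3.83 and 4.87 RPKM in the anterior lateral libraries and at 1.74, 1.27 and 0.472 RPKM in the anterior medial ones. The groups did not overlap, with a log2 difference of 2.16 (SE 0.42, adjusted p = 0.0431). Fgf18 was at 34.5, 32.8 and 29.1 RPKM in lateral and at 16.9, 16.1 and 11.7 RPKM in medial libraries, also without overlap, a log2 difference of 1.12 (SE 0.17, adjusted p = 0.0170). Fgf7, the keratinocyte growth factor, was at 4.04, 3.71 and 5.10 RPKM in lateral and at 1.26, 1.65 and 2.65 RPKM in medial libraries. Its log2 difference of 1.21 (SE 0.26) did not pass (adjusted p = 0.0622), although without anterior medial 3 it was 1.49 and passed (0.0191).

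Fgfr2 was at 22.9, 20.5 and 19.4 RPKM in anterior lateral and at 30.2, 33.2 and 32.3 RPKM in anterior medial libraries. The values did not overlap, and the log2 difference was -0.61 (SE 0.12, adjusted p = 0.0428), less than a 2-fold change. Fgfr3, Fgfr4 and Fgfrl1 were lower in lateral libraries as well, with log2 differences of -1.04, -1.43 and -0.64, all without overlap between the groups and all short of the threshold at adjusted p of 0.209, 0.102 and 0.102. Without anterior lateral 2 the Fgfr3 difference was -0.59. Fgfr1 was at 66.8 to 81.1 RPKM in lateral and 70.3 to 78.0 RPKM in medial libraries. The call of Fgfr2 was lost without any single library (adjusted p of 0.0705 to 0.201), and those of Fgf10 (0.103 to 0.159) and Fgf18 (0.0506 to 0.0846) without any anterior lateral library or anterior medial 2. Leaving out anterior medial 2 instead brought Fgfr4 to an adjusted p of 0.0299.

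The cartilage marker sum was 37.2 to 46.9 RPKM in anterior lateral and 96.9 to 154 RPKM in anterior medial libraries, with 6 of 8 markers lower in lateral without overlap. The osteoblast sums overlapped, at 61.4 to 205 RPKM in lateral and 77.8 to 116 RPKM in medial libraries. In their mean 6 of 10 osteoblast markers were higher in lateral, where Fgfr2 was lower, and 4 were lower. The endothelial sum was 177 to 204 RPKM and 123 to 151 RPKM, with 7 of 8 markers higher in lateral without overlap. The nerve and Schwann sum was 32.0 to 44.6 RPKM and 20.1 to 24.6 RPKM. The epithelial sum was 60.6 to 122 RPKM and 121 to 183 RPKM, with 9 of 16 markers lower in lateral in their mean. Their part in the FGF differences was not tested. No sequencing run held both lateral and medial libraries at either level, so run and compartment cannot be told apart here.

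At the posterior level no member was called between lateral and medial. The test called 0% of genes, with 159 of 10327 at an unadjusted P under 0.05, while 1.12% of genes and 1 of 10 members passed the P and fold thresholds of the study. That member was Fgf10, at 9.23, 6.24 and 5.26 RPKM in posterior lateral and at 0.763, 1.21 and 0.567 RPKM in posterior medial libraries. The groups lay far apart, with a log2 difference of 2.91 (SE 0.38, adjusted p = 0.451). Lateral and medial ranges did not overlap in 6.61% of all genes tested. With all 25 libraries in a single fit, the same log2 difference had an adjusted p of 0.00415, but with the sequencing run in that fit it was 0.750, and no other of the 12 settings tried called it. The epithelial sum was 38.3 to 60.8 RPKM in posterior lateral and 86.8 to 267 RPKM in posterior medial libraries, without overlap and with 13 of 16 markers lower in lateral in their mean, and its part in the Fgf10 difference was not tested. Fgf18 was at 93.6, 7.62 and 10.5 RPKM in lateral and at 11.95, 0 and 3.38 RPKM in medial libraries, so that its groups overlapped and each held a library far from the others. Posterior lateral 1, with the 93.6 RPKM, was also the library with the highest skeletal muscle sum. Unlike its replicates, it was alone in its sequencing run and carried a tag of a gene name and WT in its alignment name. The part of muscle, run and tag in its values was not tested. Posterior medial 2, with the 0, had the fewest genes above 0 and the highest epithelial sum.

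**Figure D5:**
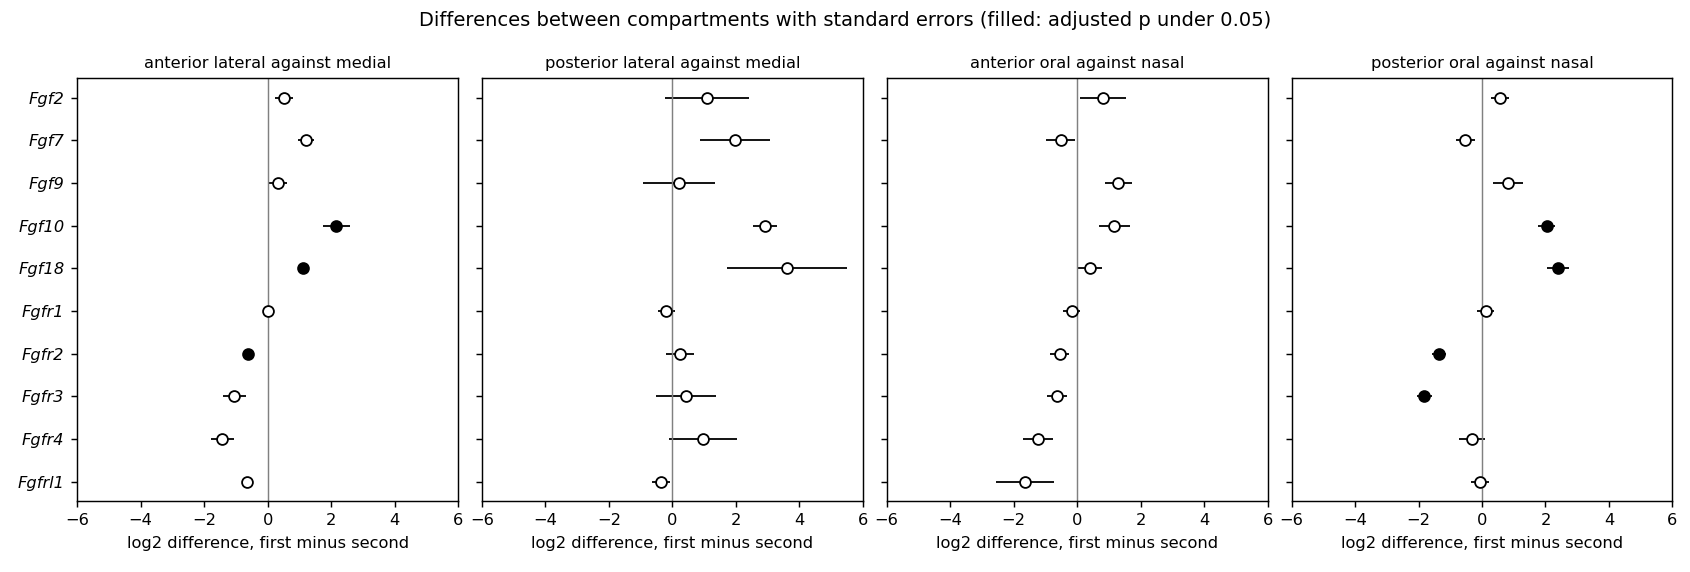
Log2 difference (x axis, on log2(RPKM + 0.1)) with its standard error for the 10 genes (y axis) in 4 comparisons, filled where the adjusted p is under 0.05. Filled points are Fgf10, Fgf18 and Fgfr2 in anterior lateral against medial and Fgf10, Fgf18, Fgfr2 and Fgfr3 in posterior oral against nasal.

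Over both levels Fgf10 was the only member called between lateral and medial, beside 0.252% of all genes. Its log2 difference was 2.54 (SE 0.31, adjusted p = 0.0127), and the 6 lateral libraries, 3.83 to 9.23 RPKM, did not overlap with the 6 medial ones, 0.472 to 1.74 RPKM. Of all genes tested 0.568% did not overlap. The call was lost without anterior lateral 1 (adjusted p = 0.0575) or anterior lateral 3 (0.0518). Fgf7 had a log2 difference of 1.59 (SE 0.63, adjusted p = 0.668), Fgf18 one of 2.37 (SE 1.06, adjusted p = 0.790), which became 0.93 and 1.36 without posterior medial 2, and Fgfrl1 one of -0.49 (SE 0.15, adjusted p = 0.431). In the interaction of this difference with level, 0.00902% of all genes were called and no member, nor did any member have an unadjusted P under 0.05, beside 373 of 11092 genes.

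All posterior against all anterior libraries gave no called member, beside 3.32% of all genes, where 1.76% of genes and 2 of 10 members passed the P and fold thresholds of the study. These were Fgf18 and Fgfr3, of which 1, Fgf18, also passed the minimum of 10 RPKM in 6 libraries. This fit held the level only, so differences between medial, lateral, oral and nasal palate went into its error. Fgf18 had a lowest, median and highest value of 10.4, 22.4 and 34.5 RPKM over the 13 anterior libraries and of 0, 9.08 and 93.6 RPKM over the 12 posterior ones. Its log2 difference was -1.71 (SE 0.64, adjusted p = 0.181), and without 1 library at a time it lay between -2.06 without posterior lateral 1 (adjusted p = 0.0477) and -1.16 without posterior medial 2 (0.122). Fgfr3 had 0.682, 1.94 and 3.90 RPKM over the anterior and 0.794, 4.50 and 13.8 RPKM over the posterior libraries, a log2 difference of 1.18 (SE 0.36, adjusted p = 0.0679). With a mean for each compartment in the fit, the Fgfr3 difference was 1.21 and was called (adjusted p = 0.0170). In the fit of level only, Fgfr3 was called without posterior medial 1 (adjusted p = 0.00723) or posterior lateral 1 (0.0423). Both posterior libraries carry a tag of a gene name and WT in the alignment name, whose meaning is not stated, and without the 6 libraries with such a tag the Fgfr3 difference was 1.46 (adjusted p = 0.0148).

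The difference between the levels was then taken inside each kind of compartment. In the nasal palate 2 members were called, beside 2.21% of all genes, and the median log2 difference of all genes was 0.12. Posterior and anterior nasal ranges did not overlap in 20.3% of all genes tested. Fgf18 was lower in the posterior nasal palate, at 2.14 to 5.77 RPKM, than in the anterior nasal palate, at 10.4 to 30.3 RPKM, and the groups did not overlap. The log2 difference posterior minus anterior was -2.49 (SE 0.43, adjusted p = 0.0222). Fgfr3 was higher in the posterior nasal palate, 10.2 to 13.8 RPKM, than in the anterior nasal palate, 1.80 to 3.90 RPKM, with a log2 difference of 2.24 (SE 0.30, adjusted p = 0.00713). Fgfr2 was at 57.8 to 68.5 RPKM and 19.1 to 41.0 RPKM without overlap, and its log2 difference of 1.07 (SE 0.28) did not pass (adjusted p = 0.0934). The call of Fgfr3 was lost without posterior nasal 1 (0.0591), and that of Fgf18 without anterior nasal 3, posterior nasal 1 or posterior nasal 3 (0.0537 to 0.129). The osteoblast sum was 443 to 643 RPKM in posterior and 100 to 132 RPKM in anterior nasal libraries, with 6 of 10 markers higher without overlap. The epithelial sum was 52.0 to 101 RPKM and 102 to 195 RPKM, with 15 of 16 markers lower in posterior nasal in their mean, and the endothelial sum 65.6 to 102 RPKM and 83.4 to 153 RPKM, with 8 of 8 lower. Of the cartilage markers 5 of 8 were higher in posterior nasal without overlap, with sums of 124 to 190 RPKM and 89.0 to 145 RPKM. The part of these cell types in the differences was not tested.

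In the lateral palate 1.39% of genes were called between the levels and no member. Without posterior lateral 1, however, 2 ligands were called as lower in the posterior lateral palate, Fgf18 with a log2 difference that moved from -0.70 to -1.83 (adjusted p = 0.009998) and Fgf2 with one that moved from -0.31 to -1.04 (0.0247). The other posterior lateral libraries had Fgf18 at 7.62 and 10.5 RPKM beside 29.1 to 34.5 RPKM in the anterior lateral ones. Fgfr3 was at 2.13, 4.88 and 6.42 RPKM in posterior and at 1.94, 0.682 and 1.86 RPKM in anterior lateral libraries, with a log2 difference of 1.51 (SE 0.51, adjusted p = 0.301). Fgfr1 was lower in posterior lateral libraries by a small step, -0.40 on the log2 scale (SE 0.13, adjusted p = 0.291). In the oral palate 0.179% of genes were called and no member. Fgfr3 was at 3.31, 4.12 and 3.06 RPKM in posterior and at 1.62, 1.77 and 1.49 RPKM in anterior oral libraries, a log2 difference of 1.05 (SE 0.26, adjusted p = 0.449). Fgf9, at 2.48 to 4.03 RPKM in the anterior oral and 0.927 to 2.17 RPKM in the posterior oral palate, had a log2 difference of -1.19 (SE 0.37, adjusted p = 0.813). In the medial palate 0.106% of genes were called and no member, and Fgfr2 had a log2 difference of -0.55 (SE 0.22, adjusted p = 0.831). These 4 comparisons between the levels share libraries with the comparisons above, and whether one of them differs from another was tested only through the interactions.

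A test of any variation over the 8 compartments called 2 members, beside 4.41% of all genes. Fgf10 had an F of 15.5 (adjusted p = 1.83e-04), and its call held without each of the 25 libraries in turn. Fgfr2 had an F of 5.93 (adjusted p = 0.0242), and the call was lost without any of the 3 posterior nasal libraries (adjusted p of 0.0941 to 0.148). Fgfr3 had an F of 4.93 (adjusted p = 0.0538) and was called without posterior medial 1, posterior medial 2 or posterior lateral 1 (0.00167 to 0.0361). Fgf18 had an F of 3.74 (adjusted p = 0.143) and was called without posterior medial 1 or posterior medial 2 (0.0141 and 0.0397). Fgf7 had an F of 2.85 (adjusted p = 0.317) and was called without posterior medial 3 (0.0350). Fgf2, Fgf9, Fgfr1, Fgfr4 and Fgfrl1 had no unadjusted P under 0.05.

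The rest of the pathway was followed with lists of other ligands, co-receptors, the intracellular relay, and feedback inhibitors and targets. Of 17 other FGF ligands 3 reached 5 RPKM in 3 libraries, namely Fgf5, Fgf11 and Fgf13. The intracellular FGF-related factors Fgf11 and Fgf13, which are not secreted ligands, had medians of 10.5 and 7.33 RPKM. Fgf5 was above 5 RPKM in 3 libraries only, with a highest value of 31.0 RPKM. Of 21 relay genes in the table, such as Frs2, Grb2 and Map2k1, 20 reached this level, and none was called in any of the 14 comparisons. Their median log2 difference lay close to that of all genes in posterior oral against nasal, 0.08 beside -0.01.

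Dusp6, a phosphatase that inactivates MAP kinases and is itself a target of FGF signalling, was the only called gene of the 6 feedback and target genes tested between posterior oral and nasal. It was at 14.2, 26.3 and 15.8 RPKM on the oral and at 7.09, 6.49 and 4.99 RPKM on the nasal side. The groups did not overlap, and the log2 difference was 1.55 (SE 0.29, adjusted p = 0.0468), in the direction of Fgf10 and Fgf18 and opposite to Fgfr2 and Fgfr3. The median of the 6 tested genes was 0.64 beside -0.01 for all genes. Over both levels Dusp6 was 1.14 higher on the oral side (SE 0.23, adjusted p = 0.0383). Its posterior call was lost without any single library (adjusted p of 0.0735 to 0.259), and its call over both levels without any library but anterior oral 1 or anterior nasal 4 (0.0518 to 0.129).

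Along the anterior-posterior axis Spry2, a feedback inhibitor of receptor tyrosine kinase signalling, was lower in the posterior palate. Its lowest, median and highest values were 9.32, 16.5 and 22.6 RPKM over the anterior and 3.37, 7.59 and 17.97 RPKM over the posterior libraries. The ranges overlapped, with a log2 difference of -1.08 (SE 0.22, adjusted p = 0.00359) that was called without each of the 25 libraries in turn. Il17rd, also known as Sef, an inhibitor of FGF signalling, was lower in the posterior nasal palate at 1.70 to 3.22 RPKM than in the anterior nasal palate at 7.06 to 13.9 RPKM. That log2 difference was -1.89 (SE 0.31, adjusted p = 0.0199), and it was not called without any of the 3 posterior nasal libraries (0.0535 to 0.0830). The means of Il17rd were also lower in the posterior lateral, medial and oral palate, but only the nasal difference was called. Posterior lateral libraries were at 3.68 to 5.71 and anterior lateral ones at 9.41 to 10.8 RPKM, a log2 difference of -1.03 (SE 0.19, adjusted p = 0.0727). In the medial palate it was -1.41 (SE 0.70, adjusted p = 0.831), with posterior medial 2 at 0.869 RPKM beside 5.38 and 5.01 RPKM in its replicates. In the oral palate the ranges overlapped.

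Among 11 tested co-receptors and partners, Flrt2 and Flrt3 were higher in the posterior palate. Both encode leucine-rich repeat transmembrane proteins that can bind FGF receptors, and Flrt2 is also a guidance ligand of Unc5 receptors. Flrt2 had 21.7, 28.1 and 37.5 RPKM as its lowest, median and highest values over the anterior and 38.5, 84.4 and 138 RPKM over the posterior libraries, so that no posterior library overlapped with an anterior one. Of all genes tested 0.267% were separated in this way. The log2 difference of Flrt2 was 1.43 (SE 0.18, adjusted p = 8.24e-06), called without each of the 25 libraries in turn. Within the medial palate it was 2.29 (SE 0.22, adjusted p = 0.0353) and within the lateral palate 1.67 (SE 0.18, adjusted p = 0.0121). The medial call was lost without any library but posterior medial 2 (0.185 to 0.424), and the lateral call without anterior lateral 2, anterior lateral 3 or posterior lateral 3 (0.0547 to 0.117). Flrt3 differed by 0.47 (SE 0.13, adjusted p = 0.0490), a call that held only without anterior nasal 1, 3 or 4, posterior medial 2 or posterior oral 2 and was lost without any of the other 20 libraries (0.0549 to 0.0904). Over the 8 compartments Flrt2 (adjusted p = 3.69e-07), Dusp6 (0.0443) and Il17rd (0.0458) were called, Flrt2 also without each library in turn, Dusp6 not without 15 and Il17rd not without 21 of the 25 libraries. No co-receptor was called between lateral and medial or between oral and nasal. Flrt2 came closest, with 0.94 in posterior oral against nasal (SE 0.20, adjusted p = 0.0882).

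For each member with 5 RPKM in at least 3 libraries, the genes most alike over the 25 libraries were found by Pearson's r of log2 values among 11913 genes, as a description only, since all values share the libraries and their depth. Runx2, a transcription factor of the bone lineage, was most like Fgfr2 (r = 0.85), followed by Ankrd50 (0.84) and Bcl11b (0.83). Gadd45g, Irx5 and Ptprv were most like Fgfr3, each at 0.83. Pgm5 (0.87), Phactr2 (0.81) and Wipf3 (0.80) were most like Fgf10. For Fgf18 they were Madcam1 (0.90), Mir568 (0.90) and Dio3os (0.89), and for Fgf7 Enpp5 (0.88), Rnf141 (0.87) and Tmem141 (0.85). Fgf2 was most like Ncoa2 (0.83), Spata13 (0.82) and Palmd (0.81), Fgfr1 most like Gpr124 (0.85), Sema3f (0.83) and Pacs2 (0.82), and Fgfrl1 most like Mgrn1 (0.93), Gm5617 (0.93) and Hmox2 (0.91). Between members, Fgf2 and Fgf18 had an r of 0.81, Fgfr2 and Fgfr3 of 0.74, and Fgf18 and Fgfr3 of -0.68. Single libraries were extreme in these genes, and r was not recomputed without them. Posterior medial 2 had Fgf18 at 0, Fgf2 at 0.478 and Fgfr3 at 10.9 RPKM. Posterior lateral 1 had the highest Fgf2 and Fgf18, at 24.4 and 93.6 RPKM, and anterior oral 1 had Fgfrl1 at 0.689 RPKM.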

How the data were processed

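RNA from laser capture microdissected mouse palate at E14.5 was amplified with the NuGEN Ovation RNA-Seq V2 system, tagmented with Nextera and sequenced as single-end reads of 50 bases. The authors deposited RPKM values for 37406 genes in 25 libraries, made with GeneSpring 12.6.1 after duplicate reads and reads with more than 1 alignment were removed. The submitters' processing notes name TopHat and mm9, and the gene annotation is not given in the sources used here. The kit does not mark strand, so reads of a gene and of an overlapping gene on the other strand cannot be told apart. Of the rows that overlap a member, only 4930525F21Rik, over Fgf7, was above 0, at up to 1.58 RPKM. Duplicate removal lowers high values more than low ones.

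Libraries were grouped by compartment from the labels. Values were analysed as log2(RPKM + 0.1) with limma 3.58.1 (lmFit, eBayes) in R 4.3.3, on the compared samples, and adjusted by Benjamini-Hochberg over all genes tested. Genes needed 5 RPKM in 3 compared samples, or 10 RPKM in 6 for all posterior against all anterior, and members below this were added. All posterior against all anterior was fitted with the level only, and as an alternative with a mean for each compartment. The fits were tested on simulated data. With 3 samples against 3 an exact permutation test cannot go below p = 0.1, so none was used. Replicate numbers were considered as pairing only in the anterior oral and nasal palate, where the deviations of all 3 same-numbered pairs correlated over 0.1. The main fits did not use them. Anterior oral 2 correlated more with anterior nasal 3 (r = 0.40), which shares its run, so this pairing is uncertain. Depth was inferred from ratios between low values, of which 299 of 300 agreed by way of another library. Only 21 of 250 miRNA hairpins had whole lengths at that total, so the totals are approximate. The Fgfr3 exons came from GENCODE M21, aligned with Biopython 1.88.

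All 10 members were named, and of each pathway list up to 3 called genes with the lowest P, or 1 at most where none was called. The members and lists were chosen with earlier results of these data known. Alternatives were other pseudocounts, expression minimums, scalings, a mean-variance trend, a replicate block, all 25 samples in a fit, the sequencing run and leaving out each library. Leaving out the libraries that stood apart or carried a tag, and the run within the compared samples, were chosen after seeing the data.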

Additional observations from a re-analysis of the deposited data

How the results depend on the processing

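All 46 differences with a direction that were recomputed kept that direction under the alternatives, 1025 values in all. Only members with an unadjusted P under 0.05 in the main fit and called pathway genes were recomputed. The alternatives used the same libraries, or most of them, so a kept direction was likely from the start and is no independent support. Calls moved far more often. The number of members called stayed at 0 in anterior oral against nasal, posterior against anterior within oral and both interactions under every alternative run. In anterior lateral against medial, 3 members called became 1 with a minimum of 1 RPKM, with quantile normalization or with all 25 samples in a fit, and 0 with no minimum or with the sequencing run in the fit of all 25 samples (the run, from here on). In posterior lateral against medial, 0 became 1 with all 25 samples. In posterior oral against nasal, 4 became 2 with all 25 samples and 0 with no minimum, with the run, also in the fit of the compared samples alone, or without the 6 libraries whose alignment name carries a tag of a gene name and WT. In oral against nasal over both levels, 4 became 1 with a minimum of 1 RPKM or none, 2 with all 25 samples or without posterior medial 2 and anterior oral 1, and 0 with the run in either fit or without the 6 libraries. In lateral against medial over both levels, 1 became 0 with quantile normalization, the mean-variance trend, the run, or without the 6 libraries. In all posterior against all anterior, the main fit already held all 25 samples, with the level only. There 0 became 1 with a pseudocount of 1, with a mean for each compartment, with the run added to these means, or without the 6 libraries. The member gained was Fgfr3. Within medial 0 became 1 with the run, and within lateral 0 became 2 without the 6 libraries. Of these 6 only posterior lateral 1 was in the lateral comparison, so that fit is the same as the fit without posterior lateral 1 given above. Within nasal 2 became 1 with a minimum of 1 RPKM or all 25 samples, and 0 with no minimum, the run in either fit, or without the 6 libraries. For variation over the compartments, 2 became 4 with a pseudocount of 1, quantile normalization or without the 6 libraries, 5 without the 2 libraries that stood apart, 1 with no minimum and 0 with the run. Where no minimum was set or all samples were fitted, more genes were tested or another spread was used, and otherwise the cause was not tested. The fit with run cannot separate run from lateral and medial within the compared samples, so no such value was computed there.

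Without 1 library at a time the members called were 0 to 3 in anterior lateral against medial and in posterior oral against nasal, 0 to 4 in oral against nasal over both levels, 0 to 2 in all posterior against all anterior and within lateral and within nasal, 0 to 1 in lateral against medial over both levels and 1 to 4 in the variation over compartments. With the replicate number as a block, 2 members were called within nasal without it and 0 with it, and 4 became 2 in oral against nasal over both levels, where Fgf18 and Fgfr2 were lost. The block also ended the call of Fgfr2 in posterior oral against nasal (adjusted p = 0.0640) and in anterior lateral against medial (0.143), where Fgf7 was called instead (0.0411), and it changed no other call of a member. The numbers are shared only as numbers there, since 24 same-numbered pairs correlated at -0.40 to 0.33. In anterior oral against nasal, where they were considered as pairing, 0 members were called with and without the block.

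The count over all genes moved as well, from 263 to between 0 and 322 in anterior lateral against medial, from 132 to between 0 and 143 in posterior oral against nasal, from 286 to between 144 and 559 in all posterior against all anterior, from 235 to between 33 and 319 within nasal, from 138 to between 17 and 154 in oral against nasal over both levels and from 526 to between 177 and 917 over the compartments. The share of calls that were higher in the posterior palate was 49.8% within nasal and 35.0% after median centring, and it was 47.4% within oral and 24.0% after quantile normalization. For all posterior against all anterior 143 of 286 calls were higher in the posterior palate, and after median centring 114 of 294. If the implied totals hold, a gene near 5 RPKM carries a counting error of 12.4% to 24.7%, and lower values carry more. Fgf9, Fgfr4, low Fgfr3 values and Fgf10 in the medial libraries are thus among the least certain. Fgf10 was at 0.472 to 1.74 RPKM in the medial libraries, and its lateral against medial differences rest on these values.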
